A study of Mus musculus with 8 samples.

Results

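The atrioventricular canal of the mouse embryo heart was described from its 4 control arrays, out of 8 arrays in the series, and 7990 of 18194 named genes were called present in it. Each control sample was a pool of 10 microdissected canals. The embryos were Gata4 flox/flox, so both alleles of Gata4 carried the sites for its deletion, and they are not labelled as carrying the T2Cre transgene that the mutant group has. All animals were on a mixed C57BL6/129 background, and the age of the embryos is not given in the labels. From each pool, 50 ng of total RNA was amplified by NuGen's isothermal Ovation method and hybridised to an Affymetrix Mouse 430 2.0 array. The 4 mutant arrays entered no value of this description except an alternative normalization over all 8 arrays, and no comparison between groups was made. The pools are separate samples in the labels, and nothing there ties a pool to a litter. Per the design text, noise led the submitters to drop 2 control samples, which it does not identify. The table has 4 control arrays, and none was dropped here.

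The canal is the segment that joins the early atria to the ventricles. Its wall has an outer epicardial cover, a layer of slowly conducting muscle and an inner endocardium. Between muscle and endocardium lies the cardiac jelly, a gel rich in hyaluronan. Signals from the muscle, among them ligands of the BMP and TGF-beta families, act on the endocardium, and some of its cells leave the lining and enter the jelly as mesenchyme. The resulting endocardial cushions later form valves and parts of the septa. A whole-canal extract can therefore hold muscle, endocardium, cushion mesenchyme, epicardium and the blood in the lumen, though the age of these embryos is not given.

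A gene was called present when the signal of its brightest probe set was above a background cutoff on all 4 arrays. A probe set is a group of short probes for the same transcript, and signal is the brightness summarised over it. The cutoff on an array was the 90th percentile of 27 probe sets for bacterial RNAs that no sample should hold. By this rule 7990 of 18194 named genes, 43.9%, were present. The level of a gene is given as its quantile-normalized log2(signal + 16), with the SD over the 4 arrays (n = 4 for every level here). Probe sets differ in how strongly they bind, so the ranks given below order signals and say nothing of the number of transcripts. A gene that was not called present is described as below the cutoff on named arrays, and its absence was not shown.

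Controls 2 and 3 stood apart from controls 1 and 4. The median signal of the bacterial probe sets was 39.3 on control 1, 158.2 on control 2, 135.1 on control 3 and 19.4 on control 4. The cutoffs followed, at signals of 97.5, 315.8, 269.5 and 51.1. Controls 2 and 3 thus had the high background and controls 1 and 4 the low one. Above the cutoff were 11825, 9805, 10508 and 11982 genes on controls 1 to 4. On both controls 1 and 4, whatever controls 2 and 3 showed, 10456 genes, or 57.5%, were above it, which is 2466 more than on all 4. On none of the arrays were 3756 genes above it. Over the 7990 present genes, controls 1 and 4 correlated at r = 0.984 across genes, controls 2 and 3 at 0.96 and the other pairs at 0.946 to 0.959. More than 2-fold apart were 30 present genes between controls 1 and 4, 260 between controls 2 and 3 and 320 to 490 between the other pairs. Because of this split, the count of each class is given below for all 4 arrays and for controls 1 and 4, and the plot of list shares gives both for each list.

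**Figure D1:**
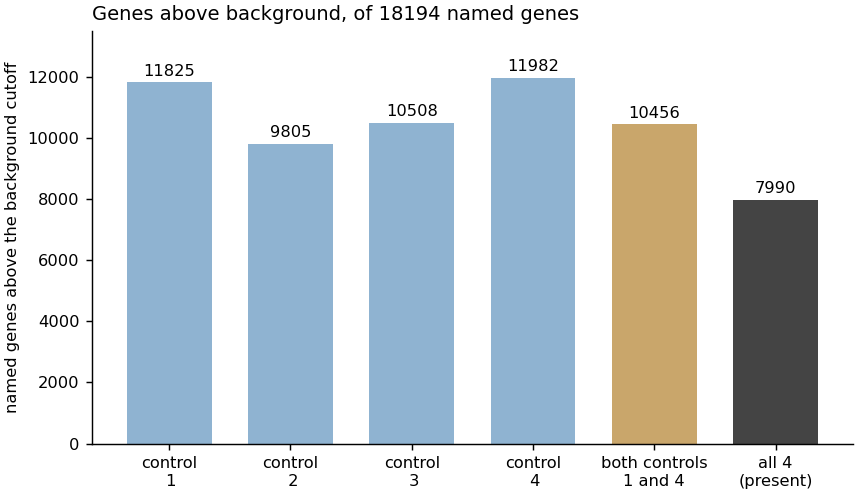
Number of named genes above the background cutoff on each control array, on both controls 1 and 4, and on all 4 (bars, counts from 0). The 4 arrays lie between 9805 and 11982, controls 1 and 4 share 10456, and 7990 are above the cutoff on all 4.

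The spread between arrays depended on the level. Among the 1000 brightest present genes the median SD was 0.09 on the log2 scale, and 0.1% of them had an SD over 0.5. From rank 5001 to 7990 the median SD was 0.35 and 21.8% exceeded 0.5. Zeb1, a zinc finger homeobox repressor of epithelial genes, had the smallest SD of all present genes, 0.002 around 13.02. At the other end, Gm9861 read 7.45, 9.52, 9.18 and 7.07 on controls 1 to 4, an SD of 1.23. Nkx6-2, a homeobox factor known from the neural tube, read 8.39, 9.55, 9.95 and 7.24, and the ribosomal protein gene Rps27 read 8.22, 10.58, 9.58 and 8.34. All 3 were high on controls 2 and 3 and low on controls 1 and 4, the same split as that of the background. Arrdc4 had the reverse on control 2, with 10.00, 7.90, 9.87 and 10.29, and Plrg1 on both controls 2 and 3, with 9.54, 8.05, 8.01 and 10.10. Kdm5d, a Y-linked demethylase, read 9.97, 10.08, 7.79 and 9.32, and was low on control 3. The part of the background in these spreads was not tested.

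At the cutoff, the genes on each side had nearly equal signals. E2f1 and Ints12 were present with 7.76 on control 2, while Cacna1a and Ppie, also with 7.76 there, fell just short on that array and were above the cutoff on the other 3. Cbx2 was short on control 3 by as little, with 7.59.

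The brightest named genes differed in function. Mrfap1 led with 14.44 ± 0.02, followed by Hmgn1, a nucleosome-binding protein, with 14.37 ± 0.08, and Cfl1, which severs actin filaments, with 14.35 ± 0.02. Next came Ywhae, a 14-3-3 adaptor, the mitochondrial pore Vdac1, the histone chaperone Rbbp4, Cox7a2 of the respiratory chain and Actb. Hbb-y, the embryonic beta-like globin, ranked 9 and Myl2, the regulatory light chain of ventricular myosin, ranked 11. Sod1, Srsf1, Stmn1, Gnb1, Nap1l1, Grb10, Eef1a1, Myl4, Cd24a and Tpm1 completed the first 20. The 20 levels lay between 14.06 and 14.44. Those of Hmgn1, Cfl1, Vdac1, Rbbp4, Hbb-y, Cd24a, Srsf1 and Stmn1 came from _x_at or _s_at probe sets, types that can bind several transcripts. Of the 100 brightest genes, 84 were among the 100 brightest on each of the 4 arrays. Within these 100 were 9 ribosomal proteins, 9 genes of the muscle lists, and no member of the receptor and matrix lists. The transcription factor lists had 3 members there, Hmga2, Ctnnb1 and Tbx20, and the ligand lists had 1, the binding protein Igfbp5.

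The 5 classes differed in how many of their members were present, and each share is to be read against 43.9% of all named genes on 4 arrays and 57.5% on controls 1 and 4. Muscle genes were present most often, 111 of 164 or 67.7%, and 76.2% on controls 1 and 4. Receptors followed with 98 of 182, 53.8% (70.3% on controls 1 and 4). When all probe sets of a gene had to be present, the receptor share was 15.4%, below the 21.7% of all genes. Matrix genes with 95 of 202, 47.0% (65.3%), and transcription factors with 162 of 348, 46.6% (59.5%), lay near the share of all genes. Ligands and secreted antagonists were the class with the lowest share, 61 of 222 or 27.5% (39.6%). The median level of the present members was 11.28 in muscle, 10.68 in transcription factors, 10.22 in ligands and in matrix and 9.81 in receptors, beside 9.98 for all present genes. The median SD was 0.14 in muscle, 0.17 in transcription factors, 0.19 in receptors, 0.20 in ligands, 0.22 in matrix and 0.21 over all present genes. The samples are bulk tissue, so for any gene a small number of cells and little RNA per cell cannot be told apart.

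**Figure D2:**
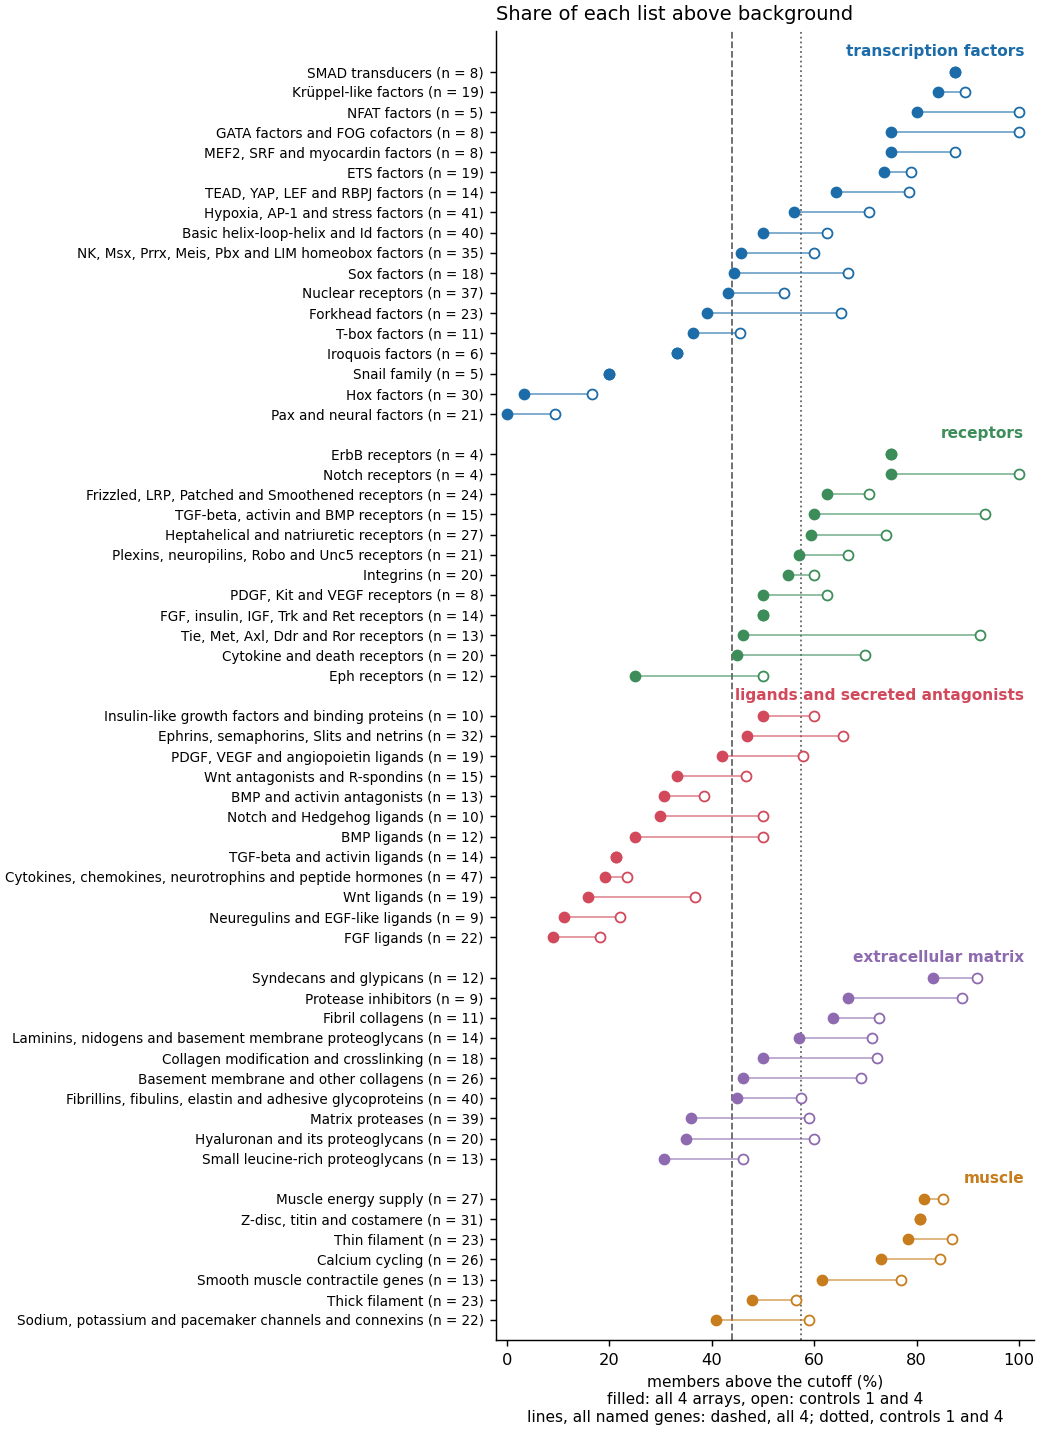
Percent of the members of each gene list above the background cutoff, on all 4 control arrays (filled) and on controls 1 and 4 (open), with the shares of all named genes as lines at 43.9% (dashed) and 57.5% (dotted). Muscle lists lie mostly to the right of the lines, and Hox, Pax, FGF, Wnt and neuregulin lists far to the left.

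Among transcription factors, the T-box genes split sharply. T-box proteins pattern the heart tube, and Tbx2 and Tbx3 are known for holding back the chamber programme in the canal. Tbx20 read 13.70, 13.81, 13.81 and 13.76 on controls 1 to 4, which gives 13.77 ± 0.05 (SD, n = 4) and rank 73. Tbx5, active in the atria and the canal, read 12.67, 12.68, 12.51 and 12.68, and Tbx3 read 11.97, 12.19, 12.04 and 12.20. Of their probe sets, 3 of 3 were present for Tbx20, 1 of 2 for Tbx5 and 3 of 5 for Tbx3. Tbx18, a gene of the epicardium, had 10.33 ± 0.19. These 4 were the present members among 11 T-box genes. Tbx2 read 8.44, 7.44, 7.10 and 8.58, above the cutoff on controls 1 and 4 and below it on controls 2 and 3. Tbx1, a factor of the pharynx and outflow tract, was above the cutoff on no array, with 7.1, 5.7, 6.7 and 6.5.

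GATA factors and their FOG cofactors were present in 6 of 8 cases, and all 8 were above the cutoff on controls 1 and 4. Gata4 read 11.09, 11.00, 11.34 and 11.31, a mean of 11.19 ± 0.17 at rank 2094. Gata6 had 10.50 ± 0.19 with 3 of 3 probe sets present, and Gata5, made in the endocardium, had 9.88 ± 0.23 with 2 of 2. Gata4 rested on 1 of its 2 probe sets, the other reading 7.34, 5.52, 5.66 and 8.38. The cofactor Zfpm2, known as FOG2, had 10.70 ± 0.12 on 1 of its 2 probe sets, and Zfpm1, known as FOG1, had 8.33 ± 0.58. Gata2, a factor of endothelium and blood progenitors, had 10.06 ± 0.44 and was lowest on control 3, with 9.43. The red cell factor Gata1 and the T cell factor Gata3 were not called, Gata1 being below the cutoff on controls 2 and 3 and Gata3 on control 2.

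Nkx2-5, a core cardiac homeobox gene, stood apart from the other muscle factors. Its 1 probe set read 6.85, 7.46, 5.58 and 7.88, above the cutoff on control 4 alone. Myocd, the coactivator of serum response factor in heart and smooth muscle, had 13.47 ± 0.04, and Mef2c, a MADS-box factor of muscle, had 12.73 ± 0.09. Of 8 MEF2, SRF and myocardin factors 6 were present, with Srf at 9.87 ± 0.10 and Mef2a at 11.44 ± 0.12. Myocd was called on 1 of 2 probe sets and Mef2c on 4 of 5. Hand2 read 9.89, 10.29, 10.48 and 10.01, and Hand1 read 9.45, 8.98, 9.90 and 9.28. Both Hand genes, which take part in the growth of the ventricles and of cushion tissue, were above the cutoff on every array. Isl1, a factor of the second heart field, read 9.0, 6.0, 7.5 and 8.1 and was below the cutoff on controls 2 and 3.

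Factors known from the epithelial to mesenchymal transition and from cushion mesenchyme ranged from bright to below the cutoff. Sox9, needed for the growth of cushion mesenchyme, read 12.66, 12.64, 12.61 and 12.31, and Twist1, a basic helix-loop-helix factor of early mesenchyme, read 11.82, 11.96, 11.67 and 11.63. Sox9 is an example of disagreement between probe sets, since 1 of its 3 was present. Snai2, also called Slug, read 10.61, 10.06, 10.02 and 10.82 with both of its probe sets present. Its relative Snai1, a repressor of Cdh1 in the transition, read 7.0, 8.1, 7.4 and 5.7 and was above the cutoff on control 2 alone. Snai2 was thus the 1 present member of 5 in the Snail family. Zeb1 had 13.02 and Zeb2 10.06 ± 0.19. The homeobox genes of cushion mesenchyme were dim: Msx1 had 8.44 ± 0.26, Prrx1 8.80 ± 0.64 and Prrx2 7.94 ± 0.11. Msx2, induced by BMP in the canal, read 8.1, 7.3, 8.4 and 8.4 and missed the cutoff on control 2 alone.

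Families known mainly from the body axis and the nervous system gave the lowest shares among the lists of factors. Of 30 Hox genes 1 was present, Hoxa3 with 7.68 ± 0.49, and 5 were above the cutoff on controls 1 and 4. Of 21 Pax and neural factors none was present, and 2 were above it on controls 1 and 4. Pax3, a neural crest and muscle factor, and Otx2, a forebrain factor, were above the cutoff on no array. Hox genes set position along the body axis, and Hoxa3 belongs to the anterior ones known from the pharyngeal arches. Its rank was 7975 of 7990, and 1 of its 4 probe sets was present.

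Sox11 and Sox4, a related pair of progenitor factors, had 13.56 ± 0.08 and 13.02 ± 0.12. With Sox9 they made up the bright end of 8 present Sox genes among 18, while Sox17 and Sox18 of the endothelium were not called. Sox17 was below the cutoff on control 3, and Sox18, with 7.3, 7.5, 7.2 and 7.9, on controls 2 and 3. Forkhead factors were present in 9 of 23 cases, and in 15 on controls 1 and 4. Foxn3 with 13.32 ± 0.09, Foxo3 with 12.76 ± 0.02 and Foxp1 with 12.76 ± 0.13 led them. Foxc2 had 11.52 ± 0.16, while its relative Foxc1 read 8.8, 7.0, 7.5 and 8.9 and was below the cutoff on controls 2 and 3. Foxm1, a proliferation factor, was above the cutoff on controls 1 and 4 alone.

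Transducers and broadly used factors were present more often than all genes. SMAD proteins, which carry BMP and TGF-beta signals to the nucleus, were present in 7 of 8 cases, with Smad1 at 12.70 ± 0.05 and the inhibitory Smad7 at 11.54 ± 0.15 and Smad6 at 8.56 ± 0.28. Krüppel-like and related zinc finger factors were present in 16 of 19 cases and ETS factors in 14 of 19. Klf2, induced by flow in endothelium, missed the cutoff on control 3, with 8.9, 8.3, 7.5 and 8.2. Of 5 NFAT factors 4 were present. Nfatc1, which marks the endocardium of the cushions, read 11.03, 11.09, 10.85 and 11.07. Ets2 had 13.25 ± 0.06, Ets1 10.80 ± 0.20 and Fli1 10.45 ± 0.34. Among factors downstream of Notch, Hey2 had 12.11 ± 0.13 and Hey1 11.07 ± 0.17, while Hes1 was below the cutoff on controls 2 and 3 and Heyl on controls 1 and 2. Rbpj, their common DNA-binding partner, had 10.36 ± 0.08 with 3 of 3 probe sets present.

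Other bright regulators were those of growth and of Wnt, Hippo and oxygen signalling. Ctnnb1, the beta-catenin of Wnt signalling and cell junctions, had 13.81 ± 0.03 at rank 59, and Lef1, its DNA-binding partner, had 12.64 ± 0.12. Hmga2, a chromatin protein of embryonic growth, had 13.82 ± 0.07 at rank 55, the first among the listed factors. Hif1a had 13.17 ± 0.04, with 4 of 4 probe sets present, while Epas1, the related factor of endothelium, had 9.45 ± 0.26. Tead1, Yap1 and Wwtr1 of the Hippo pathway had 12.15 ± 0.15, 11.88 ± 0.10 and 11.64 ± 0.04. Of 37 nuclear receptors 16 were present, led by Nr2f6 with 12.80 ± 0.13 and Esrrg with 12.55 ± 0.06. Nr2f2, known from atria and veins, had 11.14 ± 0.28. Rara, Pparg and Rxrg were above the cutoff on no array.

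**Figure D3:**
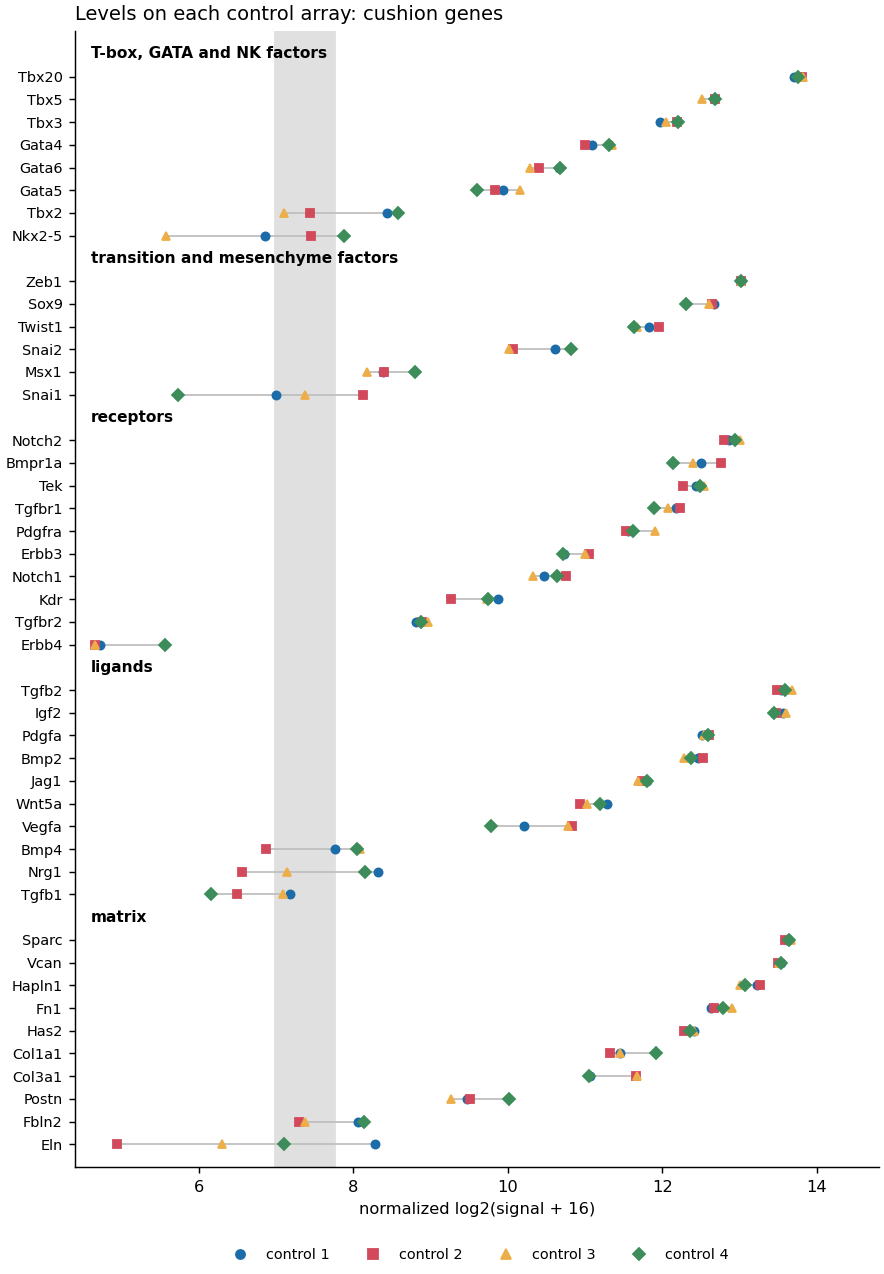
Normalized log2(signal + 16) on each of the 4 control arrays (1 marker per array) for factors, receptors, ligands and matrix genes, with a grey band from the lowest to the highest of the 4 array cutoffs (6.98 to 7.76). Tbx20, Tgfb2, Sparc and Vcan lie near 13.5 with little spread, while Tbx2, Nkx2-5, Snai1, Bmp4, Nrg1 and Eln fall in or around the band and spread widely.

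Receptors of the cushion pathways were mostly present. Of the ErbB receptors, which bind neuregulins and EGF-like ligands, Erbb3 read 10.72, 11.06, 11.00 and 10.71, and Erbb2, its signalling partner, read 8.80, 9.06, 8.96 and 9.09. Egfr had 8.22 ± 0.43, with 2 of 7 probe sets present. Erbb4 read 4.72, 4.65, 4.65 and 5.55, above the cutoff on no array. These 3 of 4 ErbB receptors were the same on controls 1 and 4. Erbb3 is also known from neural crest and glia, so it stands in that marker list too.

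The TGF-beta, activin and BMP receptors were above the cutoff more often on controls 1 and 4. On all 4 arrays 9 of 15 were present, and on controls 1 and 4 14 of 15. Bmpr1a and Bmpr2, the type I and type II receptors of BMP, had 12.45 ± 0.26 and 12.82 ± 0.09. Acvr2a, an activin receptor, had 12.84 ± 0.07. Tgfbr1 had 12.09 ± 0.15, Tgfbr2 read 8.81, 8.89, 8.96 and 8.87, and Tgfbr3, the coreceptor also called betaglycan, had 10.22 ± 0.26. Acvr1, a BMP receptor known to act in the canal endocardium, read 9.54, 9.59, 9.55 and 9.42. All of these were above the cutoff on every array, with SDs up to 0.26. Eng, the endothelial coreceptor, missed on control 3 with 8.8, 8.2, 7.0 and 9.0, and Acvrl1 was above the cutoff on control 1 alone.

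Notch receptors were present in 3 of 4 cases. Notch2 had 12.90 ± 0.09, Notch1, the receptor of the endocardium, read 10.46, 10.76, 10.32 and 10.64, and Notch3 had 10.01 ± 0.13. Notch4, an endothelial receptor, missed the cutoff on control 2 with 7.5, 6.7, 8.0 and 7.4. Receptors of the Wnt and Hedgehog pathways were present in 15 of 24 cases. Ptch1, the receptor and target of Hedgehog, had 12.28 ± 0.12, and Fzd2 and Lrp6, a receptor and coreceptor of Wnt, had 12.27 ± 0.17 and 12.14 ± 0.13. Smo, the Hedgehog transducer, was dim with 8.15 ± 0.55.

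Growth factor receptors of mesenchyme and endothelium were mixed. Pdgfra, a receptor of cushion mesenchyme, read 11.55, 11.53, 11.90 and 11.62, and Pdgfrb read 8.4, 6.0, 5.8 and 8.6, below the cutoff on controls 2 and 3. Tek, the angiopoietin receptor whose promoter drives the transgene of the mutant group, read 12.43, 12.26, 12.54 and 12.49. The related Tie1 read 7.6, 5.1, 7.5 and 8.4 and was above the cutoff on controls 1 and 4. For VEGF, Flt1 had 11.40 ± 0.04, Kdr 9.65 ± 0.26 and Flt4 8.61 ± 0.44. Igf2r and Igf1r, which bind insulin-like growth factors, had 13.37 ± 0.07 and 12.25 ± 0.10. Fgfr2 had 11.69 ± 0.18, and Fgfr1 and Fgfr3 were dim at 8.42 ± 0.29 and 8.18 ± 0.61. Across Tie, Met, Axl, Ddr and Ror receptors, 6 of 13 were present on all 4 arrays and 12 on controls 1 and 4, the widest gap in percent of any receptor list. Met read 9.1, 7.5, 7.3 and 9.3.

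Adhesion and guidance receptors included some of the brightest of the class. Itga6, a laminin receptor subunit, had 13.55 ± 0.14 and was the receptor of highest rank, 126. Itgav had 13.23 ± 0.09 on 1 of its 5 probe sets, and Itgb1, the common beta subunit, had 10.53 ± 0.42 on 2 of 6. Nrp1, a coreceptor of semaphorins and VEGF, had 13.04 ± 0.11 with 4 of 4 probe sets present, and Robo1, a Slit receptor, 12.56 ± 0.14. Plexins, neuropilins, Robo and Unc5 receptors were present in 12 of 21 cases, integrins in 11 of 20 and Eph receptors in 3 of 12. Epha4 led the last with 11.43 ± 0.15, Epha3, known from cushion mesenchyme, read 9.85, 10.12, 9.04 and 9.33, and Ephb4 of veins was above the cutoff on controls 1 and 4 alone. Among heptahelical receptors, 16 of 27 were present, with the thrombin receptor F2r at 12.71 ± 0.07, the endothelial Calcrl at 12.43 ± 0.11 and Ednrb at 11.77 ± 0.11. Of cytokine and death receptors 9 of 20 were present, led by Ghr, the growth hormone receptor, with 11.94 ± 0.06.

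Ligands were present less often than all named genes, and their lists differed. Ephrins, semaphorins, Slits and netrins had 15 of 32 present, or 46.9%, while the TGF-beta, BMP, FGF and Wnt lists described next had lower shares. Tgfb2, the TGF-beta of canal muscle and cushions, read 13.54, 13.49, 13.67 and 13.59, a mean of 13.57 ± 0.08 at rank 121, with 4 of 4 probe sets present. Tgfb1 read 7.2, 6.5, 7.1 and 6.2, above the cutoff on control 1 alone, and Tgfb3 was above it on no array. Ltbp1, which binds latent TGF-beta, had 13.54 ± 0.07. The list of TGF-beta and activin ligands and their binding proteins thus had 3 of 14 present, Ltbp3 with 9.04 ± 0.17 being the third.

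Among BMP ligands 3 of 12 were present. Bmp2, the inducer of cushion formation in canal muscle, read 12.47, 12.53, 12.28 and 12.37. Bmp5 had 11.92 ± 0.05 with 3 of 3 probe sets present, and Bmp7 had 10.28 ± 0.15 with 1 of 3. Bmp4 read 7.8, 6.9, 8.1 and 8.0 and missed the cutoff on control 2. Bmp10, a factor of trabecular chamber muscle, read 5.0, 5.2, 5.5 and 7.3, and Bmp6 was above the cutoff on no array. On controls 1 and 4, 6 of the 12 were above it. The extracellular modulators of BMP that were present were Fstl1 with 13.02 ± 0.19, Twsg1 with 12.73 ± 0.01, Bmper with 11.51 ± 0.13 and Fst with 8.60 ± 0.49. Nog, or noggin, was above the cutoff on control 1 alone, and Chrd, or chordin, on no array.

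FGF and Wnt ligands were seldom present. Of 22 FGF genes 2 were present, Fgf13 with 10.78 ± 0.22 and Fgf14 with 8.47 ± 0.39, both of which code for intracellular FGF-like proteins that act on sodium channels. None of the secreted FGFs listed was present, though Fgf9 read 8.5, 7.6, 9.0 and 8.9 and missed on control 2 alone, as Fgf1 did on control 3. Of 19 Wnt genes 3 were present and 7 were above the cutoff on controls 1 and 4. Wnt5a read 11.28, 10.93, 11.03 and 11.20, Wnt2 had 8.95 ± 0.46 and Wnt11 8.06 ± 0.39. Wnt9b, known from the endocardium, read 7.5, 7.7, 7.2 and 8.3 and was above the cutoff on controls 1 and 4. Secreted Wnt regulators were led by Dkk3 with 11.09 ± 0.29, Rspo3 with 10.81 ± 0.19 and Sfrp1 with 10.24 ± 0.13.

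The other growth factors were led by the insulin-like and platelet-derived ones. Igfbp5, a binding protein of insulin-like growth factors, had 13.77 ± 0.07 at rank 74, and Igf2 read 13.56, 13.48, 13.60 and 13.44. Igf1 had 10.55 ± 0.28 with 4 of 4 probe sets present. Pdgfa had 12.56 ± 0.04, Pdgfc 10.87 ± 0.13 and Pdgfd 10.33 ± 0.13, while Pdgfb, an endothelial ligand, was above the cutoff on control 4 alone. Vegfa read 10.21, 10.83, 10.78 and 9.79, higher on controls 2 and 3 than on controls 1 and 4, and 1 of its 2 probe sets was present. Angpt1, the ligand of Tek from muscle, had the largest SD of the class, with 9.56, 10.40, 8.04 and 9.37.

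Neuregulins, which bind Erbb3 and Erbb4, were not called present. Nrg1 read 8.31, 6.56, 7.14 and 8.15 and was above the cutoff on controls 1 and 4. The other neuregulins were Nrg2 and Nrg3, above the cutoff on no array, and Nrg4, above it on controls 3 and 4. Of the 9 neuregulins and EGF-like ligands Hbegf, a factor of valve growth, was the present one, with 9.22, 8.71, 7.82 and 9.31. Jag1, a Notch ligand, had 11.76 ± 0.06, and Dll4, the endothelial one, missed on control 4 with 7.4, 8.0, 7.9 and 6.8. Of cytokines, chemokines, neurotrophins and peptide hormones 9 of 47 were present, among them the heparin-binding growth factors Ptn with 12.14 ± 0.19 and Mdk with 11.69 ± 0.02, Adm with 11.69 ± 0.18, and Cxcl12 with 9.88 ± 0.23. Edn1, or endothelin 1, had 8.67 ± 0.14.

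Several ligands and receptors of the same pathway were both called present in these extracts. They were Bmp2 with Bmpr1a and Bmpr2, Tgfb2 with Tgfbr1, Tgfbr2 and Tgfbr3, Jag1 with Notch1 and Notch2, Pdgfa with Pdgfra, Igf2 with Igf1r and Igf2r, Slit2 with Robo1, Vegfa with Flt1 and Kdr, Angpt1 with Tek and Cxcl12 with Cxcr4. In other pathways a partner was missing from the calls. Erbb3 was present without a called neuregulin, and Kitl, at 11.18 ± 0.14 with 4 of 4 probe sets present, without its receptor Kit, which read 5.8, 7.0, 8.0 and 7.5. Fgfr2 was present without a called secreted FGF. Which cells held each partner was not measured.

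Genes of hyaluronan and of its binding partners were among the bright matrix genes. Vcan, the large hyaluronan-binding proteoglycan versican, read 13.53, 13.50, 13.51 and 13.54 at rank 139, with 6 of 8 probe sets present. Hapln1, the link protein that ties versican to hyaluronan, read 13.23, 13.26, 13.00 and 13.07. Has2, the hyaluronan synthase of the cardiac jelly, read 12.41, 12.28, 12.41 and 12.35, and Ugdh, which makes a sugar precursor for it, had 12.76 ± 0.17. Cd44, a hyaluronan receptor, had 11.90 ± 0.06. The other synthases were not called: Has3 was above the cutoff on no array and Has1 on control 3 alone. In the list of hyaluronan and its proteoglycans 7 of 20 were present, Acan or aggrecan, the proteoglycan of cartilage, being last with 7.79 ± 0.61.

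Sparc, a collagen-binding glycoprotein, was the brightest matrix gene with 13.62 ± 0.04 at rank 108. Fn1, or fibronectin, had 12.75 ± 0.12 and Fbn2, a fibrillin, 12.64 ± 0.12, each with 2 of 2 probe sets present. Of 11 fibril collagens 7 were present. Col1a1 read 11.45, 11.32, 11.45 and 11.91, Col3a1 read 11.07, 11.65, 11.67 and 11.05, and Col2a1, a collagen of cartilage and cushions, read 10.51, 9.51, 9.59 and 10.42. Col3a1 was higher and Col2a1 lower on controls 2 and 3 than on controls 1 and 4. Postn, or periostin, a marker of cushion mesenchyme, read 9.47, 9.51, 9.27 and 10.02. Thbs4, a thrombospondin, had 11.07 ± 0.35, and Ccn2 and Ccn1, targets of mechanical and Hippo signals, had 11.48 ± 0.28 and 10.79 ± 0.26.

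Several matrix genes were above the cutoff on controls 1 and 4 alone. Eln, or elastin, read 8.3, 4.9, 6.3 and 7.1, Mgp read 7.8, 5.0, 5.0 and 7.6, and Fbln2 read 8.1, 7.3, 7.4 and 8.1, each above the cutoff on controls 1 and 4. Of small leucine-rich proteoglycans 4 of 13 were present, Bgn with 9.38 ± 0.63, Dcn with 8.49 ± 0.17, Lum with 8.20 ± 0.49 and Fmod with 7.86 ± 0.27, all in the lower part of the order. Ogn and Aspn were above the cutoff on controls 2 and 3 and not on controls 1 and 4. Lox, which crosslinks collagen and elastin, missed on control 2, with 7.5, 7.2, 8.0 and 7.0.

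Of laminins, nidogens and basement membrane proteoglycans 8 of 14 were present, and of basement membrane and other collagens 12 of 26. Agrn, or agrin, had 12.23 ± 0.05, and Col4a5 12.35 ± 0.06. Col4a1 had 11.64 ± 0.09 and Col4a2, its partner chain, 10.79 ± 0.22. The laminin chains Lamc1, Lamb1 and Lama4 had 11.21 ± 0.24, 11.09 ± 0.14 and 11.04 ± 0.21, while Lama1 of the early embryo was above the cutoff on no array and Lama5 and Lamb2 were above it on controls 1 and 4. Syndecans and glypicans were the matrix list with the highest share, 10 of 12, led by Gpc4 with 12.50 ± 0.14. Matrix proteases were present in 14 of 39 cases, and in 23 on controls 1 and 4. Adam10, which cuts Notch and other surface proteins, had 13.15 ± 0.03, and Adamts9, an enzyme that cleaves versican, read 12.12, 12.14, 11.97 and 12.12. Adamts5, another such enzyme, missed on control 2, with 7.9, 7.7, 8.1 and 8.8. Mmp2 had 9.44 ± 0.41, and Mmp9 was above the cutoff on no array. Of the inhibitors Timp3 had 10.66 ± 0.08 and Timp2 9.73 ± 0.16, while Timp1 missed on control 2.

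Muscle genes were the brightest class, with 41 of 111 present members among the 1000 brightest genes. In the thick filament, Myl2 read 14.21, 14.18, 14.20 and 14.21. Myl4 and Myl7, light chains known from atrial muscle, read 14.10, 14.04, 14.09 and 14.11, and 14.04, 13.92, 14.01 and 14.03. Myl3 had 13.75 ± 0.06. The heavy chains Myh6 and Myh7, named alpha and beta, had 13.60 ± 0.10 and 13.43 ± 0.10. The SD of each of these 6 was at most 0.10, and their levels were far above the array cutoffs of 6.98 to 7.76 in every pool. Isoforms known from atria and from ventricles were thus both present. Which muscle cells held them was not measured. Of 23 thick filament genes 11 were present, and many of those not called are known from skeletal muscle. Myh3 and Myh8, the embryonic and perinatal heavy chains of skeletal muscle, were above the cutoff on no array. Mylpf, their regulatory light chain, read 9.3, 7.4, 8.0 and 9.1 and missed on control 2.

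Thin filament genes were present in 18 of 23 cases. Tpm1 had 14.06 ± 0.02, Actc1, the cardiac actin, 13.90 ± 0.02, Tnnt2, the cardiac troponin T, 13.78 ± 0.09 and Tnnc1 13.45 ± 0.07. Tnni1, the troponin I of slow muscle and of the early heart, read 11.92, 11.77, 12.06 and 12.13, and Tnni3, the isoform of the mature heart, 11.65, 11.64, 11.93 and 11.63. Z-disc and costamere genes were present in 25 of 31 cases, with Vcl at 13.58 ± 0.06, Ldb3 at 13.50 ± 0.05, Ttn at 13.33 ± 0.20 and Ankrd1 at 13.18 ± 0.08. Des, or desmin, had 9.66 ± 0.32 on 1 of its 2 probe sets. Genes of energy supply were present in 22 of 27 cases. Atp5a1 of the ATP synthase had 14.02 ± 0.06, Cs, the citrate synthase, 13.59 ± 0.05 and Ppargc1a, a coactivator of mitochondrial genes, 11.46 ± 0.02 with 5 of 5 probe sets present. Myoglobin, Mb, read 7.5, 5.9, 7.0 and 8.0, and the muscle creatine kinase Ckm 6.8, 5.2, 5.0 and 7.7, so that neither was called.

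Genes of calcium handling were present in 19 of 26 cases. Atp2a2, the calcium pump of the sarcoplasmic reticulum, had 13.45 ± 0.11, Ryr2, its release channel, 12.76 ± 0.13 and Pln, the inhibitor of the pump, 11.78 ± 0.14. The pore subunits of L-type calcium channels, Cacna1c and Cacna1d, had 11.64 ± 0.17 and 11.37 ± 0.12. Among ion channels and connexins 9 of 22 were present. Gjc1, the connexin 45 of slowly conducting muscle, read 10.83, 10.71, 10.67 and 10.57, and Gja1, connexin 43, read 13.21, 13.40, 12.85 and 12.94. Gja5, connexin 40 of fast chamber conduction, read 5.0, 4.8, 4.8 and 7.1, above the cutoff on control 4 alone. The T-type channel Cacna1g was above it on no array, and Cacna1h missed on control 2. Kcnj5 and Kcnj3, subunits of the acetylcholine-gated potassium channel, had 11.45 ± 0.18 and 9.78 ± 0.43. Smooth muscle genes were present in 8 of 13 cases, with Acta2 at 13.48 ± 0.05 and Tagln at 11.68 ± 0.14, both also made in early heart muscle. Myh11, the myosin of mature smooth muscle, was above the cutoff on no array, with 5.4, 5.6, 5.0 and 5.6.

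**Figure D4:**
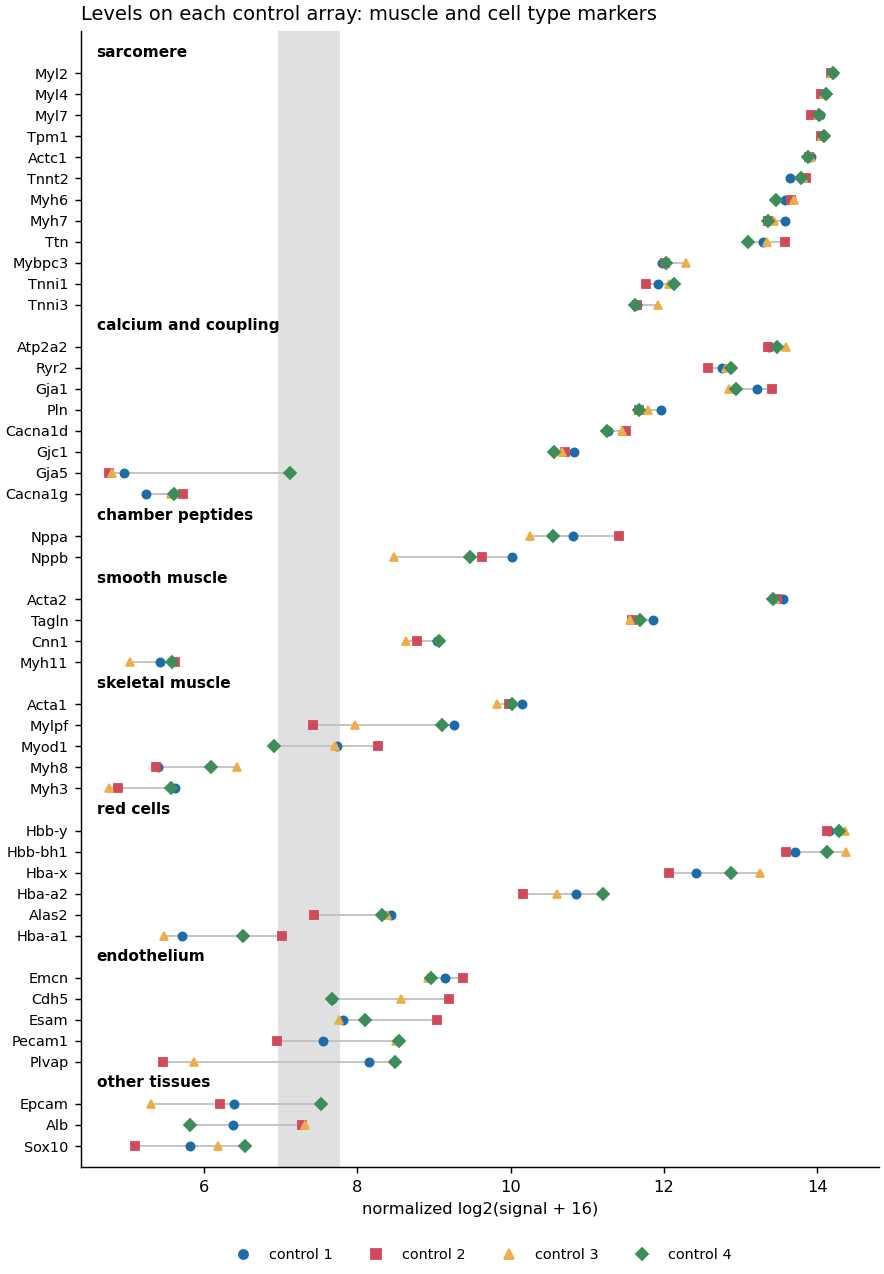
Normalized log2(signal + 16) on each of the 4 control arrays (1 marker per array) for muscle genes and cell type markers, with the range of the array cutoffs (6.98 to 7.76) in grey. Cardiac sarcomere genes and the embryonic globins Hbb-y, Hbb-bh1 and Hba-x lie far above the band, and Gja5, Cacna1g, Myh11, Myh3 and Sox10 lie below the band on most arrays.

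Promoters were read in windows from 250 bases before to 50 after the RefSeq start of each gene (assembly GRCm38.p6, first listed window). Such a window was given for 14369 of the 18194 named genes and for 92 of the 111 present muscle genes. A CArG box, the site that serum response factor is known to bind, was searched on both strands. It was found in 11 of these 92 windows. The share was 1.6% of the 6519 windows of all present genes and 1.4% of the 14369 windows of named genes. It was 1.6% of all 27025 windows, which include genes without a named probe set. The 11 genes were Myl3, Myl7, Myom1, Actc1, Acta1, Ldb3, Vcl, Fhl1, Fhl2, Dmd and Myl9. The letters AGATAA, a site type that GATA factors are known to bind, were found on either strand in 17 of the 92 windows, 18.5%. The share was 5.9% in present genes, 8.1% in all named genes with a window and 11.4% in all windows. Of the 37 windows of muscle genes not called, 1 had a CArG box and 1 had AGATAA. A match is a description of the letters, and binding was not measured.

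To show what these matches look like, the 120 bases before the start of 5 of the muscle genes follow, each 5′ to 3′ on the gene's own strand, with CArG boxes and AGATAA (or TTATCT, the same site on the other strand) in capitals. The windows are chr9:110763558-110763677 (plus strand) for Myl3, chr11:5898783-5898902 (minus) for Myl7, chr2:114052876-114052995 (minus) for Actc1, chr17:71019437-71019556 (plus) for Myom1 and chr1:43196762-43196881 (minus) for Fhl2.
Myl3: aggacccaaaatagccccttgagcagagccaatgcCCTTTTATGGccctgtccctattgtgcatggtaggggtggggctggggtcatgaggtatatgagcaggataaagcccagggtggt
Myl7: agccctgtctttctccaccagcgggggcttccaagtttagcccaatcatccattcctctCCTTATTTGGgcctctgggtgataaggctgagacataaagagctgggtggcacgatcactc
Actc1: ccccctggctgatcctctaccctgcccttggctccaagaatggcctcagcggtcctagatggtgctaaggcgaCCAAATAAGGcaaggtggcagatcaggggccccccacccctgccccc
Myom1: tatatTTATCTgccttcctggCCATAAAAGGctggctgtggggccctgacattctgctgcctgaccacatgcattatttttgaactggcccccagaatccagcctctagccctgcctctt
Fhl2: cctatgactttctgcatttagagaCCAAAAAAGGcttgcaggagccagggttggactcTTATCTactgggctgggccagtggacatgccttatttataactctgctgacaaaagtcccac
The CArG box began 85, 61, 47, 99 and 96 bases before the start of Myl3, Myl7, Actc1, Myom1 and Fhl2. In Myom1 and Fhl2 the AGATAA site lay 115 and 62 bases before it. All 5 genes were present, Myom1 with 11.68 ± 0.10 and Fhl2 with 10.46 ± 0.10.

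The same muscle windows were poor in CG dinucleotides. In most of a mammalian genome CG is rarer than its bases predict, and many promoters of widely used genes are an exception. The ratio of observed to expected CG was over 0.6 in 77.9% of the windows of present genes and 57.0% of those of named genes. It was over 0.6 in 39.7% of the windows of genes not called and in 25.1% of those above the cutoff on no array. All windows, which include genes without a named probe set, had 36.4%. The share was 82.2% for ranks 1 to 1000 and 71.6% for ranks 5001 to 7990. Among present muscle genes it was 28.3% and among muscle genes not called 18.9% (37 windows), in the thick filament list 9.1% (11 windows) and among ubiquitous genes 92.3% (13 windows). Present transcription factors had 76.6%, receptors 62.2%, matrix 53.8% and ligands 51.1%. For contrast with the muscle genes, the 120 bases before the start of the ribosomal protein gene Rps3 (chr7:99483710-99483829, minus strand) are shown with each CG in capitals.
Rps3: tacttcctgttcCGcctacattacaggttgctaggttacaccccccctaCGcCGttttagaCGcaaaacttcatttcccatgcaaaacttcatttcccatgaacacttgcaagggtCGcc
This stretch held 5 CG pairs, and that of Myl3 none. The ratio over the whole window was 0.96 for Rps3 and 0.04 for Myl3.

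**Figure D5:**
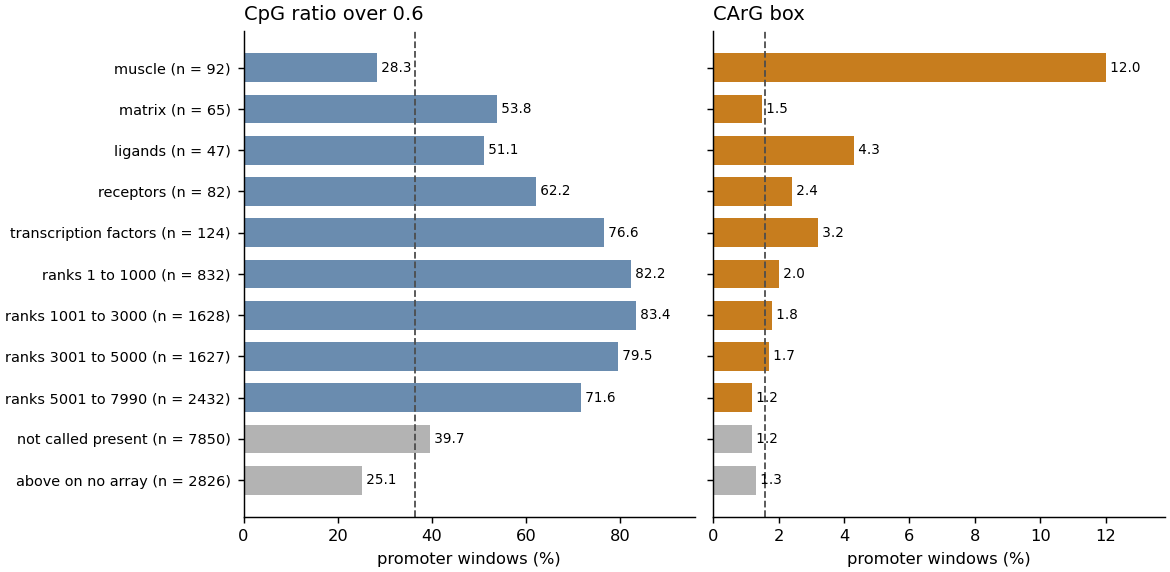
Percent of RefSeq promoter windows with a CG ratio over 0.6 (left) and with a CArG box (right), for genes not called present (grey) and for present genes by rank and class (coloured), with the share of all windows dashed. Muscle genes have the lowest share of CG-rich windows among the present genes, 28.3%, and the highest share with a CArG box, 11 of 92 windows. Over all named genes with a window the shares were 57.0% and 1.4%.

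Markers of the cell types of the labelled tissue were present to different degrees. Their counts, too, are to be read against 43.9% of all named genes on 4 arrays and 57.5% on controls 1 and 4. Cardiomyocyte markers were present in 15 of 16 cases, Nkx2-5 being the exception, and cushion mesenchyme markers in 15 of 16, with Fbln2 as the exception. Vim, the vimentin of mesenchyme, had 13.88 ± 0.04. Epicardial markers were present in 10 of 14 cases, with Wt1 at 10.75 ± 0.30 and Tbx18 at 10.33 ± 0.19, while Aldh1a2 and Msln were above the cutoff on no array. Endothelial and endocardial markers were present in 11 of 20 cases, and 18 were above the cutoff on controls 1 and 4. Emcn read 9.14, 9.38, 8.92 and 8.97 and Cdh5, the cadherin of endothelium, 7.67, 9.20, 8.57 and 7.67. Pecam1 read 7.6, 7.0, 8.5 and 8.5 and missed on control 2 alone. Apart from Tek, Flt1 and Nfatc1, the endothelial markers thus lay in the lower part of the signal order.

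Markers of canal muscle and of chamber muscle were both found. Of 9 canal muscle markers 5 were present, Tgfb2, Bmp2, Tbx3, Rspo3 and Gjc1, and 8 were above the cutoff on controls 1 and 4. These shares were 55.6% and 88.9%, beside 43.9% and 57.5% of all named genes. Of 10 chamber markers 8 were present, Bmp10 and Gja5 being the exceptions. Nppa, the atrial natriuretic peptide of chamber muscle, read 10.81, 11.41, 10.26 and 10.55, and Nppb read 10.02, 9.63, 8.48 and 9.47. Irx4, a ventricular factor, read 9.23, 8.82, 8.80 and 9.26. The part of chamber tissue in the dissected pools was not tested.

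Red cell transcripts varied between the pools. Hba-x, an embryonic alpha-like globin, had an SD of 0.52, the largest among the 1000 brightest genes. Hbb-bh1, an embryonic globin, read 13.71, 13.59, 14.37 and 14.13 on controls 1 to 4, and Hba-x read 12.42, 12.07, 13.25 and 12.88. Hbb-y moved less, with 14.16, 14.12, 14.36 and 14.29. All 3 were highest on control 3 and lowest on control 2. Slc4a1, the anion exchanger of the red cell membrane, kept to that order with 10.90, 9.98, 11.27 and 11.05. In background signal, control 2 was the highest and control 4 the lowest, and its part in these differences was not tested. Of 16 red cell markers 8 were present and 12 were above the cutoff on controls 1 and 4. The 50.0% present lay near the 43.9% of all named genes. Globin genes are near copies of each other, so their probe sets may bind related transcripts.

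The lists of other cell types had lower shares present than the 43.9% of all named genes. On controls 1 and 4 white cell and platelet markers had 43.8% and neural ones 45.5%. There, skeletal muscle had 30.0% and foregut, liver and lung 28.6%, beside 57.5% of all named genes. Of 16 macrophage, platelet and white cell markers 4 were present, Ppbp with 9.30 ± 0.35, Pf4 with 9.25 ± 0.37, Lyz2 with 8.21 ± 0.19 and Itga2b with 7.96 ± 0.25, of which Ppbp, Pf4 and Itga2b mark platelets and their precursors. Ptprc, the antigen of all white cells, was above the cutoff on control 1 alone. Of 14 foregut, liver and lung markers none was present, and 4 were above the cutoff on controls 1 and 4. Epcam, of epithelium, read 6.4, 6.2, 5.3 and 7.5, and Alb, or albumin, was above the cutoff on no array. Of 11 neural crest, neuron and glia markers 3 were present, Erbb3, Nefl with 8.20 ± 0.83 and Stmn2, and Sox10 and Foxd3 were above it on no array. Skeletal muscle gave 2 of 10, Acta1 with 9.99 ± 0.13 and Tnnt3 with 7.94 ± 0.18, while Myod1 missed on control 4 and Myog was above the cutoff on control 1 alone. All 15 ubiquitous genes were present.

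Gene families outside the 5 classes gave a scale for these shares. Ribosomal proteins were present in 43 of 48 cases, splicing factors in 58 of 62, translation factors in 53 of 58, proteasome subunits in 35 of 39 and respiratory chain and ATP synthase subunits in 76 of 86. Subunits of the replication machinery (MCM, Orc and replication factors) were present in 20 of 27 cases, and 26 were above the cutoff on controls 1 and 4. At the other end, of 39 olfactory receptors, 38 vomeronasal and taste receptors and 20 beta-defensins none was present, on all 4 arrays or on controls 1 and 4. Keratins and keratin-associated proteins were present in 5 of 89 cases, cytochrome P450 enzymes in 7 of 72 and interleukins and their receptors in 5 of 73. Solute carriers, with 117 of 317 or 36.9%, lay nearer the share of all genes. Families of housekeeping machinery were thus present in about 9 of 10 cases, and families of sense organs, skin and defence almost never.

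A gene's call could depend on which probe set stood for it. Of the present genes, 5613 had several probe sets: in 1567 all were present, in 1646 some, and in 2400 the brightest alone. Genes with 1 probe set were present in 25.9% of cases and genes with several in 62.3%. Cux1 was called on 2 of 9 probe sets, Klf9 on 1 of 7 and Fmod on 1 of 6. Against these, Sox11, Tfrc and Ywhaz had all of 6, 6 and 7 present. On every array the control probe sets read higher at the 3′ end of a transcript than at its 5′ end. The log2 ratio of 3′ to 5′ signal was 1.14 to 1.40 for Actb and 0.36 to 0.48 for Gapdh. The part of this bias in low readings and in disagreements between probe sets was not tested.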

How the data were processed

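The authors deposited an intensity on the linear scale for each probe set, and the submitters' processing notes name MAS5 as the tool. Its version, any background correction and detection calls are not given in the sources used here. Every array has a plain mean of 714.971, and medians between 83.6 and 268.5. Of 45101 probe sets, 34958 carried 1 gene symbol in the platform annotation, 932 carried several and 9147 none, and 64 were array controls. The 34958 stood for 18194 genes, of which 18033 matched RefSeq. The 4 control columns were taken as log2(signal + 16) and quantile normalized with each other, and the probe set of highest mean stood for its gene. Presence was judged on each array's own signals against its 27 bacterial probe sets, and arrays have no depth, so their number, 4, limits the precision. No test was made, since 1 group is described.

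Of 1288 listed symbols in 71 lists, 1194 had a named probe set, and the other 94 were not analysed here. The members and lists were chosen with earlier results of these data known. Genes were named by rule: the 20 brightest, the 3 brightest present and the 2 brightest uncalled members of each list, a set of canal genes, the 10 largest and 10 smallest SDs, and the 5 genes on each side of the cutoff. A further 119 list members were named beside the counts, after their values were seen. Alternatives changed the cutoff, the arrays, the probe set, the pseudocount and the normalization. Python 3.11.15 was used with numpy 2.4.6, pandas 2.3.3, scipy 1.17.1 and matplotlib 3.10.9.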

Additional observations from a re-analysis of the deposited data

Results flagged for a closer look

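Of 250 values and array measures, 15 had 1 array far from the other 3, with a gap to the nearest of them above Dixon's 95% critical value for 4 samples. Chance gives about 1 in 20 such cases, and over all 7990 present genes 431, or 5.4%, met the same condition, 44 on control 1, 182 on control 2, 126 on control 3 and 79 on control 4. Control 2 was the low one for Edn1 with 8.45, Ltbp3 with 8.79, Lyz2 with 7.92 and Mrfap1 with 14.42. Control 3 was low for Adamts9 with 11.97, Mef2c with 12.59, Sod1 with 14.16 and Tbx5 with 12.51, and high for Ets1 with 11.10, Tgfbr3 with 10.61 and Tnni3 with 11.93. Control 4 was low for Dcn with 8.24, Fstl1 with 12.73, Sox9 with 12.31 and Timp3 with 10.54. The other arrays of Tgfbr3 read 10.07 to 10.12. Mrfap1 and Sod1 met the condition because quantile normalization gave the other 3 arrays equal values. Their deposited signals on controls 1 to 4 were 23418.4, 20202.7, 20998.3 and 25147.5 for Mrfap1. For Sod1 they were 21063.5, 17886.5, 17293.6 and 20521.2, so in both genes controls 2 and 3 lay close together.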

How the results depend on the processing

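The count of present genes fell from 7990 to 3944, or 21.7% of named genes, when all probe sets of a gene had to be present. The classes then had 56 transcription factors (16.1%), 28 receptors (15.4%), 30 ligands (13.5%), 46 matrix (22.8%) and 66 muscle genes (40.2%). Transcription factors, receptors and ligands were thus below the share of all genes, and matrix and muscle genes above it. With the cutoff at the median bacterial probe set, 98 ligands were present. Presence on at least 2 of 4 arrays gave 112 ligands and 150 matrix genes. Leaving out each array in turn gave 8179 to 8827 genes in all, 168 to 177 transcription factors, 100 to 109 receptors, 65 to 69 ligands, 97 to 109 matrix and 111 to 115 muscle genes. Without controls 2 and 3, and with the probe set chosen anew, 10556 were present, of which 7986 were among the 7990. The other counts over all genes and the 5 classes, 81 of 90, stayed within 1.5 times. Of 1065 list counts 170 moved by more. Of 3322 levels, pooled over the alternatives, 529 moved by more than 1 SD. Without controls 2 and 3 most named levels did so: 182 moved and 120 stayed. Under quantile normalization over 8 arrays 93 moved and 209 stayed. Between 85 and 100 of the 100 brightest genes stayed under the alternatives run. No paired analysis was possible because 1 group is described and no test was made. Dim genes limit these calls: 21.8% of those ranked 5001 to 7990 had an SD over 0.5.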

Other observations

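Long noncoding RNAs were present less often than protein-coding genes, 133 of 1355 (9.8%) beside 7797 of 16469 (47.3%). Over the autosomes and X, the share of present genes ran from 34.9% on chromosome 7, with 1413 genes, to 51.1% on chromosome 12, with 622. Chromosome Y had 2 of 9 genes present. On controls 2 and 3 alone, 329 genes were above the cutoff, and on controls 1 and 4 alone 1213.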
